A study of Mus musculus with 4 samples.

Results

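The genes of ubiquitin-conjugating enzymes (E2 enzymes, gene symbols beginning with Ube2) and of ubiquitin-specific proteases (USPs, symbols beginning with Usp and a digit) were followed in denervated mouse tibialis anterior (TA) muscle. Every gene of the count table whose symbol had either form was taken, whatever its values. This gave 33 E2 genes and 43 USP genes, 76 of the 13825 genes of the table, and all 76 were among the 13084 genes that were tested (mean count of 10 or more). The symbol rule also took in genes that are not enzymes of these families. Usp6nl encodes a Rab GTPase-activating protein named after a related sequence, Ube2cbp encodes a binding protein of Ube2c, Ube2d-ps is named as a pseudogene, and Ube2v1 and Ube2v2 encode E2-like partners without the active cysteine.

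The libraries came from TA muscle of adult male wild-type (WT) mice and of mice with a whole-body deletion of Fgf21 (Fgf21KO), the gene of a secreted hormone of the fibroblast growth factor family. Sham and denervated muscle of WT mice are abbreviated WS and WD, and those of Fgf21KO mice KS and KD. All were collected 14 days after surgery. Denervation was removal of a piece of the left sciatic nerve. The sham muscle is described in the labels as that of an untouched right leg and in the paper as that of a contralateral limb operated on without cutting the nerve, and by the paper both limbs came from the same mice for expression measurements. Muscles of 4 mice were pooled for each group, so each group is 1 library with no replicate, and the spread between mice was not measured. The WT mice were C57BL/6J, and the background of the Fgf21KO mice was not given in the sources used here. Fgf21 itself was not analysed here, and the genotypes stand as labelled.

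Ubiquitin is activated by an E1 enzyme, passed to the active cysteine of an E2 enzyme and placed on a substrate with the help of an E3 ligase. Much of the linkage type of a ubiquitin chain is set by the E2 enzyme, while USPs and other deubiquitinases cut ubiquitin from substrates or take chains apart. In skeletal muscle, the ubiquitin-proteasome system is known for breaking down contractile proteins when a muscle loses its nerve.

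Total counts were between 25249879 and 34141303 per library, and 3 counts corresponded to between 0.0919 and 0.129 CPM, the count relative to the scaled total of its library. The 13 mitochondrially encoded protein genes took 27.0% and 30.4% of the counts in the sham libraries and 19.4% and 20.6% in the denervated libraries. Levels were therefore scaled with edgeR's TMM factors, and a scaling by total counts alone moved the median log2 ratio of all genes by 0.29 (WD vs WS) and 0.36 (KD vs KS). Of the markers of denervated muscle, Runx1 and Gadd45a were in the table, with a summed level between 29.1 and 29.8 CPM in the sham libraries and between 873 and 883 CPM in the denervated libraries. Of 6 muscle fibre markers, 2 (Myh1 and Mylpf) were in the table. Their summed level was 33830 (WS) and 31685 (KS) CPM in the sham libraries and 20923 (WD) and 23091 (KD) CPM in the denervated ones. Their log2 changes with denervation were -0.47 and -0.86, with 0 DEGs. Of 4 slow fibre markers, 1 (Tnnt1) was in the table and was a DEG. It was at 6.28 and 5.66 CPM in the sham libraries and at 45.4 and 44.3 CPM in the denervated ones. Markers of other cell types moved with surgery as well. The summed level of 5 endothelial markers was between 336 and 415 CPM in the sham libraries and between 184 and 194 in the denervated ones, with 2 DEGs, both lower, and that of 5 fibro-adipogenic markers was between 573 and 586 CPM and between 381 and 395 CPM, with 0 DEGs. Their part in the results below was not tested.

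Denervation was tested with edgeR (quasi-likelihood) on all 4 libraries, with genotype and surgery as additive terms and Benjamini-Hochberg adjustment over all genes. The model uses the libraries of both genotypes as replicates of each surgery, leaves 1 residual degree of freedom and cannot test the interaction. A gene is said to have risen or fallen where its adjusted p was below 0.05, and is called a differentially expressed gene (DEG) where it was also at least 2-fold changed. Ratios between a pair of libraries carry 95% intervals that cover counting error only and come with no test.

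Denervation called 13.1% of all tested genes, against 2 of 33 E2 genes (6.06%) and 2 of 43 USP genes (4.65%). Of all genes 6.84% were called higher and 6.24% lower. In the E2 family 1 gene was called in each direction, and in the USP family 2 were called higher. With scaling by total counts only, 15.5% of all genes, 3 E2 genes and 6 USP genes were called, all of these members higher. The DEGs were Ube2c, Usp11 and Usp28, which were higher in denervated muscle, and Ube2d1, which was lower. Without the fold threshold, 53.5% of all tested genes passed, of which 26.6% of all genes were higher and 27% lower. In the E2 family 14 of 33 genes (42.4%) passed, 6 higher and 8 lower, and in the USP family 25 of 43 (58.1%) passed, 13 higher and 12 lower. With scaling by total counts only, the split was 21 higher and 4 lower of 25 E2 genes and 22 higher and 4 lower of 26 USP genes. Of all tested genes, 46.7% were then higher and 12.8% lower. All fallen and risen counts below are therefore relative to the TMM scaling. The changes were small in both families. The median absolute log2 ratio of WD vs WS was 0.17 over the E2 genes and 0.28 over the USP genes, against 0.40 over all tested genes, and that of KD vs KS was 0.19, 0.29 and 0.39. RNA from fewer cells of a type and less RNA per cell cannot be told apart in such bulk libraries.

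**Figure D1:**
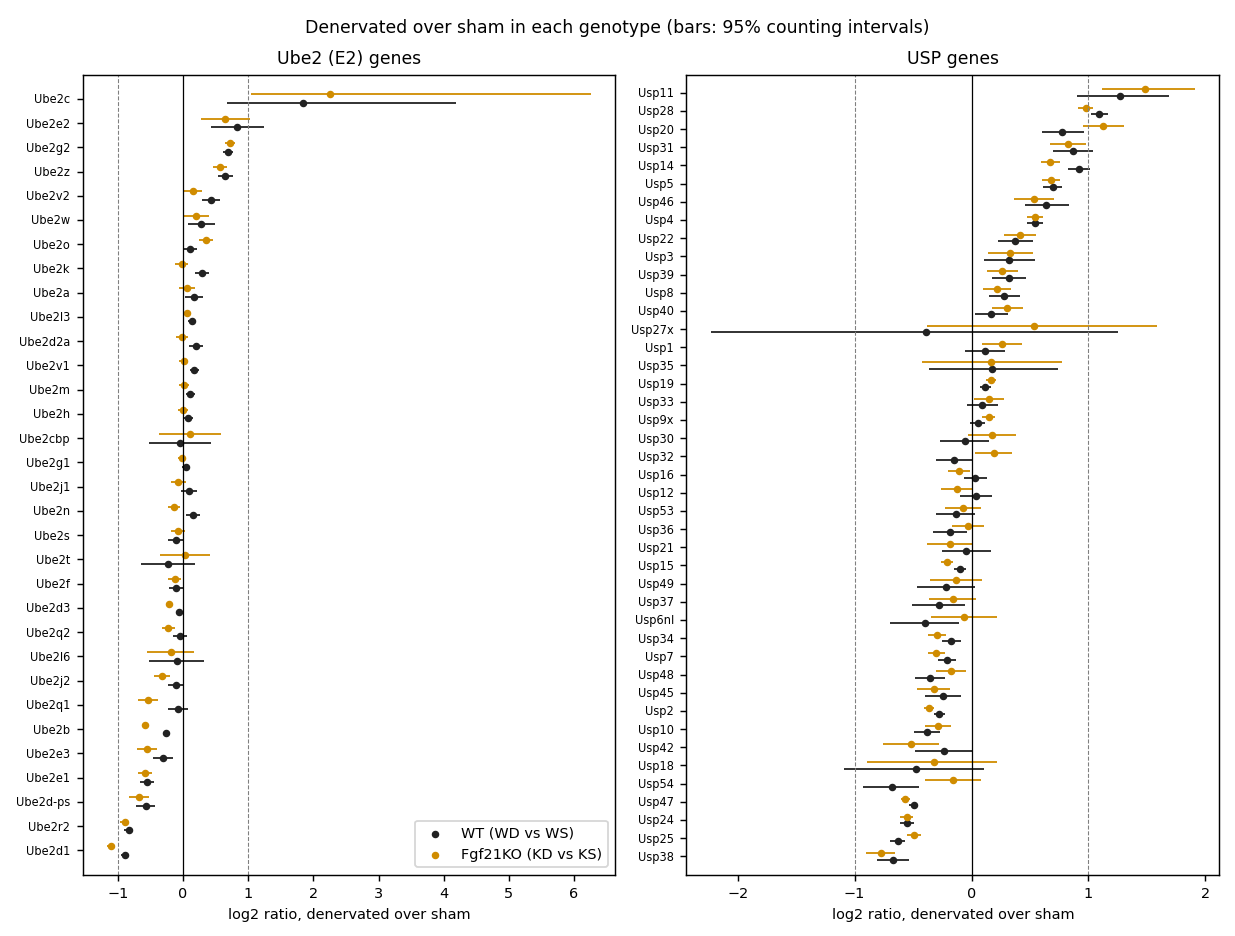
Log2 ratio of denervated over sham level (x axis) for 32 E2 genes (left) and 43 USP genes (right), in WT muscle (black) and Fgf21KO muscle (orange). Points use a prior count of 2, bars are 95% counting intervals and dashed lines mark a 2-fold change. Most genes of both families lie between the dashed lines. Both points of Ube2c and Usp11, the WT point of Usp28 and the Fgf21KO points of Ube2d1 and Usp20 lie beyond them.

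Usp28 encodes a nuclear deubiquitinase known for stabilising MYC, and it had the highest counts of the DEGs that rose. Its counts were 2039 (sham) and 6118 (denervated) in WT, and 2713 and 5554 in Fgf21KO. Both denervated libraries were higher than both sham libraries. The log2 ratio was 1.09 (1.02 to 1.17) in WT and 0.97 (0.91 to 1.04) in Fgf21KO, and the additive log2 change was 1.03 ± 0.07 (SE, adjusted p = 8.71e-13).

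Usp11, on the X chromosome, encodes a nuclear relative of Usp4 and Usp15. It was a low gene, at 72 (sham) and 247 (denervated) counts in WT, and 72 and 213 in Fgf21KO. At the scaled level, the sham libraries were at 3.10 (WS) and 2.42 (KS) CPM, below the denervated libraries at 7.57 (WD) and 6.89 (KD) CPM. The log2 ratios were 1.27 (0.90 to 1.69) and 1.48 (1.11 to 1.91), and the additive change was 1.40 ± 0.20 (adjusted p = 1.17e-06).

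Ube2c encodes the E2 enzyme that starts chains for the anaphase-promoting complex, the E3 ligase of mitotic exit. It was the lowest E2 gene in all libraries, at 4 (sham) and 26 (denervated) counts in WT, and 2 and 18 in Fgf21KO. The counting intervals of its log2 ratios were wide, from 0.68 to 4.19 in WT and from 1.05 to 6.26 in Fgf21KO (adjusted p = 0.000911 for the additive change). It was not a DEG in 3 other settings. DESeq2's Wald test gave it no adjusted p, and a filter at a mean count of 50 removed it. With limma on the deposited log2 values it passed (adjusted p = 0.00583) but was under the fold threshold. The summed level of 3 markers of cycling cells (Mki67, Top2a and Cdk1) was 1.68 (sham) and 4.32 (denervated) CPM in WT and 2.02 and 2.17 CPM in Fgf21KO. Mki67 rose by 0.99 (adjusted p = 0.0231), just under the fold threshold, and none of the 3 was a DEG. That of 6 macrophage markers was 23.5, 53.0, 25.2 and 52.2 CPM, and 2 of them were DEGs, both higher. The part of these cells in the Ube2c counts was not tested.

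Ube2d1 encodes a broadly acting E2 enzyme of the Ube2d group, which works with many E3 ligases. Its counts were 4323 (sham) and 3274 (denervated) in WT, and 6616 and 3197 in Fgf21KO. At the scaled level, both denervated libraries (100 and 103 CPM) were below both sham libraries (186 and 223 CPM). The log2 ratio was -0.89 (-0.96 to -0.83) in WT and -1.11 (-1.17 to -1.05) in Fgf21KO. In the additive model it fell by 1.0 ± 0.07 (adjusted p = 2.66e-12), at the fold threshold. With scaling by total counts it fell by 0.68 (adjusted p = 5.70e-06) and was no longer a DEG. Just outside the threshold on the other side was Usp20, whose additive change was 0.95 ± 0.11 (adjusted p = 2.79e-08).

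The upstream sequences of the DEGs are shown because these are the members whose level differed most between surgeries. RefSeq start sites of GRCm38.p6 were used, a build other than the GRCm39 named in the submitters' processing notes, and a promoter was found for 59 of the 76 genes. The 250 bases before each start site were searched on both strands for 9 motifs. These were the CCAAT box, the GC box with the letters GGGCGG, the cell cycle homology region with the letters TTTGAA and the variant letters TTTAAA, the Runx letters TGTGGT, the myogenic E-box with the letters CAGCTG, the clock E-box with the letters CACGTG, the FoxO letters GTAAACA, the antioxidant response element with the letters TGACNNNGC and the NRF1 palindrome. The part of those bases outside any annotated exon or gene body is printed 5′ to 3′, with matches in capitals. Usp28 lies at chr9:48985319-49042517, and its sequence is chr9:48985135-48985318 on the plus strand. Usp11 lies at chrX:20703909-20720539, with chrX:20703659-20703905 on the plus strand printed. Ube2c lies at chr2:164769929-164772902, with chr2:164769679-164769897 on the plus strand printed. Ube2d1 lies at chr10:71254980-71285384, with chr10:71285385-71285512 on the minus strand printed.
Usp28: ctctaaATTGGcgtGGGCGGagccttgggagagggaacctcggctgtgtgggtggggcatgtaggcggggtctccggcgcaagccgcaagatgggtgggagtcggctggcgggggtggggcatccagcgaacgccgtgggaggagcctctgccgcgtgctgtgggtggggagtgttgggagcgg
Usp11: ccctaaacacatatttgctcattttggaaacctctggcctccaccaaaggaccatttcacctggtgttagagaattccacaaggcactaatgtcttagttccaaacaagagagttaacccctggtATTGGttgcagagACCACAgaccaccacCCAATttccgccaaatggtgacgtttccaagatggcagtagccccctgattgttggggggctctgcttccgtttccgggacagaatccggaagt
Ube2c: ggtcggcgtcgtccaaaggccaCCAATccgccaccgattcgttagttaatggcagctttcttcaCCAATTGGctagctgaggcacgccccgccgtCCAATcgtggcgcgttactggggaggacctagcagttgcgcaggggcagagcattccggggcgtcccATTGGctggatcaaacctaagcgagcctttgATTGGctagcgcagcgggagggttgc
Ube2d1: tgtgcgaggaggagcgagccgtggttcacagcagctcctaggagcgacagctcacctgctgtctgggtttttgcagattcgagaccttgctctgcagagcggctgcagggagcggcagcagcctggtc

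The Ube2c sequence held 6 CCAAT matches on both strands, of which a pair overlap each other. Of all 27025 genes with a promoter, 18 (0.0666%) held at least 6 matches and 37.5% held at least 1. At least 1 CCAAT match was held by 6 of 26 E2 promoters (23.1%) and 5 of 33 USP promoters (15.2%). Usp28 showed 1 CCAAT and 1 GC box in the printed bases, and Usp11 showed 2 CCAAT matches and 1 Runx match, a motif found in 15.9% of all promoters. The printed Ube2d1 bases held none of these letters, while its whole 250 bases held 1 myogenic E-box (found in 14.7% of all promoters) and 2 GC boxes. Over that length, Ube2c also held 1 match of the cell cycle homology region (found in 28.1% of all promoters) and 1 GC box, and Usp28 held 5 GC boxes. Over the whole 250 bases, a GC box was present in 21 of 26 E2 promoters (80.8%) and 24 of 33 USP promoters (72.7%), against 35.4% of all promoters. All promoters include those of genes that were not among the 13084 tested, while every member was tested, so these shares are of unlike sets. Of the members that passed, the GC box was present in 10 of 12 promoters of those that rose and 13 of 18 of those that fell. A match is a run of letters and not a measured site.

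The E2 genes were next grouped by the role of their enzyme. In the group of Ube2d, Ube2e and Ube2w, which start chains on substrates, 3 of 7 genes fell and 1 rose. Of all tested genes, 27% fell and 26.6% rose. Ube2e1 fell by 0.57 on the log2 scale and Ube2e3 fell by 0.43 (with total counts by 0.11, adjusted p = 0.38), while Ube2e2 rose by 0.74 ± 0.21 (adjusted p = 0.00400) from low counts, which were 73 (sham) and 183 (denervated) in WT, and 101 and 165 in Fgf21KO. Ube2d2a and Ube2d3 did not pass, with additive changes of 0.09 and -0.14. Ube2d-ps, the pseudogene, fell by 0.63, and 0.334% of the 50-base windows of its transcript were shared with another gene.

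Among 6 enzymes of lysine-48 chains and of degradation at the endoplasmic reticulum, 2 fell and 1 rose, beside 27% and 26.6% of all tested genes. Ube2r2, a Cdc34-type enzyme that extends chains with cullin ligases, was at 4429 (sham) and 3491 (denervated) counts in WT, and at 5636 and 3153 in Fgf21KO. Its log2 ratio was -0.83 in WT and -0.90 in Fgf21KO, the second lowest of the family in WT (adjusted p = 2.57e-11). Ube2g2, which serves degradation at the endoplasmic reticulum, was at 1957 and 4430 counts in WT and 2470 and 4238 in Fgf21KO, and rose by 0.70 ± 0.07 (adjusted p = 2.42e-09). Ube2j2 fell by 0.21, a direction that turned with scaling by total counts, and Ube2g1, Ube2k and Ube2j1 did not pass.

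Ube2b, a homologue of yeast RAD6 that works in the N-degron pathway, was the E2 gene with the most counts. It was at 9447 (sham) and 11087 (denervated) counts in WT, and at 14521 and 10062 in Fgf21KO. At the scaled level the KS library was the highest (489 CPM) and both denervated libraries the lowest (340 and 325 CPM). Its additive change was -0.42 ± 0.08 (adjusted p = 3.02e-05), and its ratio on the log2 scale was -0.26 for WT and -0.59 for Fgf21KO. Scaled by total counts, the change was -0.10 and did not pass (adjusted p = 0.21). Its relative Ube2a, at between 0.06 and 0.17 in the same comparisons, did not pass.

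Of the lysine-63 enzyme and its partners, Ube2v2 rose by 0.29 ± 0.10 (adjusted p = 0.0117), and Ube2n and Ube2v1 did not pass. The Ube2v1 value is uncertain, since 83.2% of the windows of its transcript were shared with another annotated gene. Ube2s (-0.09) and Ube2t (-0.10), the enzymes of chain elongation for the anaphase-promoting complex and of the Fanconi anaemia pathway, did not pass. Of the enzymes for ubiquitin-like proteins, Ube2z, which takes ubiquitin or FAT10 from Uba6, rose by 0.61 ± 0.08 (adjusted p = 3.90e-07). Ube2m and Ube2f (NEDD8) and Ube2l6 (ISG15) had additive changes of 0.06, -0.12 and -0.15 and did not pass. Ube2o, a combined E2 and E3 enzyme, rose by 0.23, with log2 ratios of 0.11 in WT and 0.35 in Fgf21KO. Ube2q1 fell by 0.31, a direction that turned with scaling by total counts. Its log2 ratio was -0.07 (-0.23 to 0.08) in WT and -0.54 in Fgf21KO. The 19 E2 genes that did not pass had additive changes between -0.15 and 0.24. With scaling by total counts most of these 19 passed as higher, such as Ube2m (0.38) and Ube2l3 (0.42), and the rest did not pass. Of all tested genes, 46.7% passed as higher under that scaling.

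USP genes that rose included those of the proteasome and of free ubiquitin chains. Usp14, whose product is bound to the proteasome and trims chains there, was at 1201 (sham) and 3188 (denervated) counts in WT, and at 1905 and 3166 in Fgf21KO. The log2 ratio was 0.92 (0.82 to 1.01) in WT and 0.67 (0.59 to 0.76) in Fgf21KO, and the sham libraries differed from each other by 0.31 (0.21 to 0.42). Usp5, which takes apart unanchored chains, rose by 0.69 ± 0.07 (adjusted p = 4.74e-09), with log2 ratios of 0.69 and 0.68. Usp5 falls outside the rule for naming genes and was chosen after its values were seen.

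Usp20, a relative of Usp33 known from the recycling of adrenergic receptors, was at 363 (sham) and 875 (denervated) counts in WT, and at 392 and 890 in Fgf21KO. Its log2 ratio was 0.78 in WT and 1.12 in Fgf21KO. Usp31, with counts of 381 and 977 in WT and 523 and 965 in Fgf21KO, rose by 0.85 ± 0.10 (adjusted p = 4.79e-08). Usp22, a histone deubiquitinase of the SAGA complex, rose by 0.39 ± 0.10 (adjusted p = 0.000900).

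USP genes that fell included the highest of the family. Usp47, a deubiquitinase known from base excision repair, was at 12282 (sham) and 12236 (denervated) counts in WT, and at 15287 and 10759 in Fgf21KO. At a raw count that was nearly equal in WT, its scaled level fell, with log2 ratios of -0.50 and -0.57 (adjusted p = 2.65e-07). Usp24 (-0.55 and -0.56) and Usp25 (-0.63 and -0.49) fell as well. Usp38 was the USP gene that fell most, by 0.73 ± 0.09 (adjusted p = 7.35e-08), from 934 and 1362 counts in the sham libraries to 825 and 826 in the denervated ones. Usp54 fell by 0.42 ± 0.15 (adjusted p = 0.0177), with log2 ratios of -0.68 (-0.93 to -0.45) in WT and -0.16 (-0.40 to 0.08) in Fgf21KO, and did not pass with scaling by total counts (adjusted p = 0.62).

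Usp2 (-0.32), linked to circadian regulation, and Usp7 (-0.26), known for acting on MDM2 and p53, also fell, and both changed sign with scaling by total counts. Usp19, an endoplasmic reticulum anchored USP known from muscle atrophy, was at 6121 (sham) and 9333 (denervated) counts in WT and at 7175 and 8392 in Fgf21KO. It did not pass with TMM (0.14 ± 0.07, adjusted p = 0.0883). With scaling by total counts its change was 0.46 and passed (adjusted p = 6.19e-05). Usp9x (0.10), Usp18 (-0.41 from at most 63 counts), which removes ISG15, and Usp30 (0.06), which acts at the mitochondrial outer membrane, did not pass with TMM. Usp3, Usp8, Usp39 and Usp40 rose by between 0.24 and 0.33 and Usp42 fell by 0.38, the latter not passing with scaling by total counts (adjusted p = 0.75), while Usp34, Usp45 and Usp48 fell by between 0.23 and 0.28 and changed sign with scaling by total counts. The 18 USP genes that did not pass had additive changes between -0.41 and 0.23. Among them, the value of Usp49 is uncertain, since 51.8% of its windows were shared. Several of the 18, such as Usp9x (0.42), passed as higher with scaling by total counts, and the rest did not pass. Of all tested genes, 46.7% passed as higher under that scaling. Over all 76 members, 13 shared more than 5% of their windows with other genes.

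Related members were compared in 23 pairs, drawn up after the values were seen. The counting intervals of the partners lay apart in both genotypes in 13 pairs. These intervals cover counting error only, and how often those of unrelated genes lie apart was not measured. In 3 pairs a partner rose and the other fell, in 2 both moved the same way, in 15 a single partner passed and in 3 neither did. Of all tested genes, 26.6% rose and 27% fell, and pairs of unrelated genes were not counted. Some members stand in more than 1 pair. Usp25 and Usp28 showed the widest split in WT muscle, and Usp11 and Usp15 in Fgf21KO muscle. Per kilobase of transcript, the level in WS was 36.7 CPM for Usp25 and 21.0 for Usp28, while in WD it was 23.7 and 44.8. In Fgf21KO muscle the levels were 38.8 and 21.8 in KS and 27.6 and 42.9 in KD. The order of the pair was thus turned in both genotypes. The difference between the partners' log2 ratios (Usp25 minus Usp28) was -1.72 in WT and -1.47 in Fgf21KO.

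Usp11 exceeded its relative Usp15 by 1.37 and 1.69 on the log2 ratio scale, and Usp4, which rose by 0.54, exceeded Usp15 by 0.64 and 0.75. Usp20 exceeded Usp33 by 0.68 and 0.97. Usp46, which rose by 0.59 ± 0.11 (adjusted p = 5.86e-05), exceeded Usp12, which did not pass, by 0.60 and 0.66. In the E2 family, Ube2d1 was below Ube2d2a by 1.09 in both genotypes and below Ube2d3 by 0.83 and 0.89. Ube2e2 exceeded Ube2e3 by 1.12 and 1.19 and Ube2e1 by 1.38 and 1.23, and Ube2g2 exceeded Ube2g1 by 0.64 and 0.74. These partners are distinct genes. The share of 50-base windows found in other genes was 0% for Ube2d1 and 5.90% for Ube2g2, so some of the reads of Ube2g2 may be shared with another annotated gene.

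**Figure D2:**
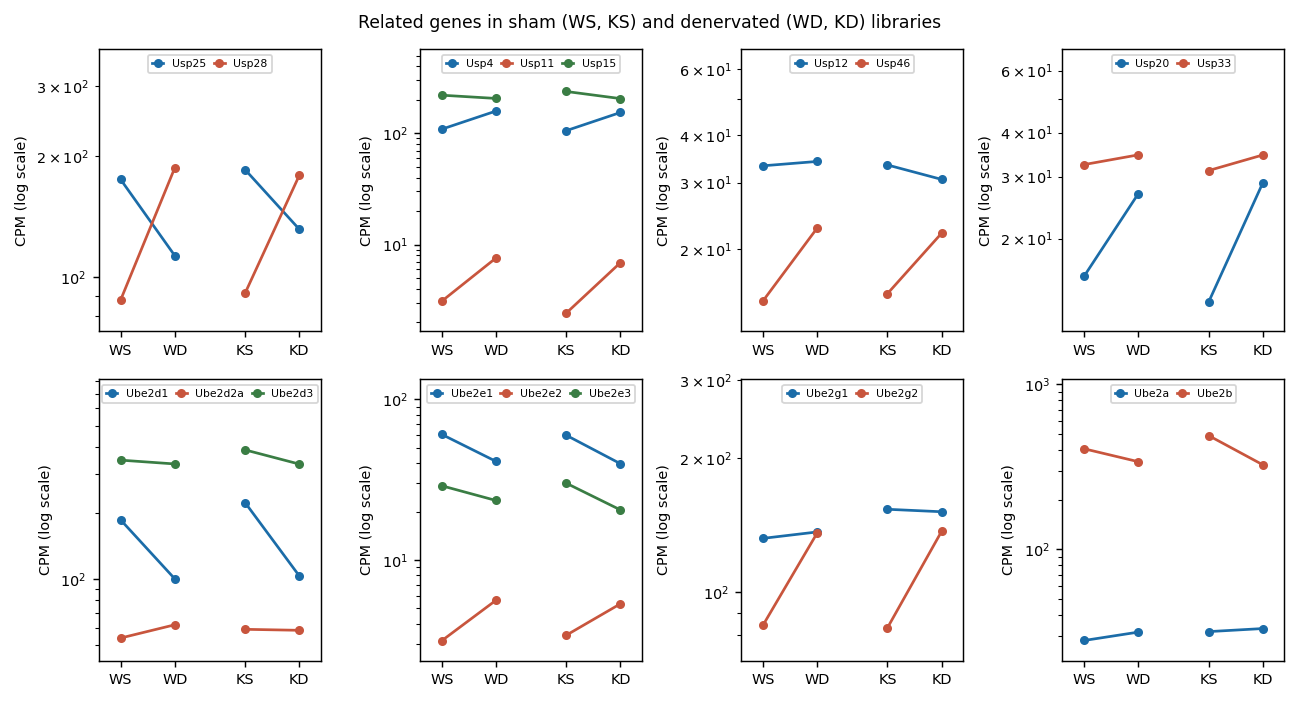
CPM (log scale) of related genes in the 4 libraries. Lines join sham and denervated libraries of WT (WS, WD) and of Fgf21KO (KS, KD), each point being 1 pooled library, and the axes differ between panels. Usp25 and Usp28 cross in both genotypes, and Ube2g2 rises to the level of Ube2g1 in WD.

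The level of the members spanned more than the changes did. Per kilobase of transcript, the highest E2 gene was Ube2b, at 217 (sham) and 181 (denervated) CPM in WT, and 260 and 173 CPM in Fgf21KO. In the same order of libraries, Ube2d1 (130, 70.1, 156 and 72.2) and Ube2d3 (74.5, 71.6, 82.9 and 71.5) followed on the mean over libraries, and they were close to each other in both denervated libraries. This depends on the lengths used, 1431 bases for Ube2d1 and 4674 for Ube2d3. Their longest annotated transcripts held 3109 and 19251 distinct 50-base windows. Without the length division, the denervated libraries were at 100 and 103 CPM for Ube2d1 and at 335 and 334 CPM for Ube2d3. The highest USP genes were Usp47 (89.0, 63.1, 86.7 and 58.6), Usp2 (54.0, 44.7, 62.6 and 48.7) and Usp19 (49.8, 54.0, 45.6 and 51.3). Usp19 was below Usp2 in both sham libraries and above it in both denervated libraries. Usp28 moved from rank 7 of the USP genes in both sham libraries to rank 3 in WD and 4 in KD, and Usp25 from rank 4 to rank 7. Ube2g2 moved from rank 8 of the E2 genes to rank 5 in WD and 4 in KD. Ube2c and Usp27x were last of their family in every library.

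A few genes carried much of each family. Ube2b, Ube2d3 and Ube2l3 took between 34.8% and 37.5% of the E2 counts of a library. Usp47, Usp19 and Usp2 took 34.9% of the USP counts in WS and 34.8% in KS, and 30.0% in WD and 29.3% in KD. The summed level of the E2 genes was 2569 (sham) and 2440 (denervated) CPM in WT and 2801 and 2389 CPM in Fgf21KO, so the ratios were -0.07 and -0.23 on the log2 scale. That of the USP genes was 2980, 2889, 3007 and 2875 CPM, a log2 ratio of -0.04 and -0.06. With scaling by total counts both sums were higher in denervated muscle, and without Usp47 the USP sum was higher as well (0.04 and 0.02). The sums thus give no direction that is independent of the scaling and, for the USPs, of the highest member.

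**Figure D3:**
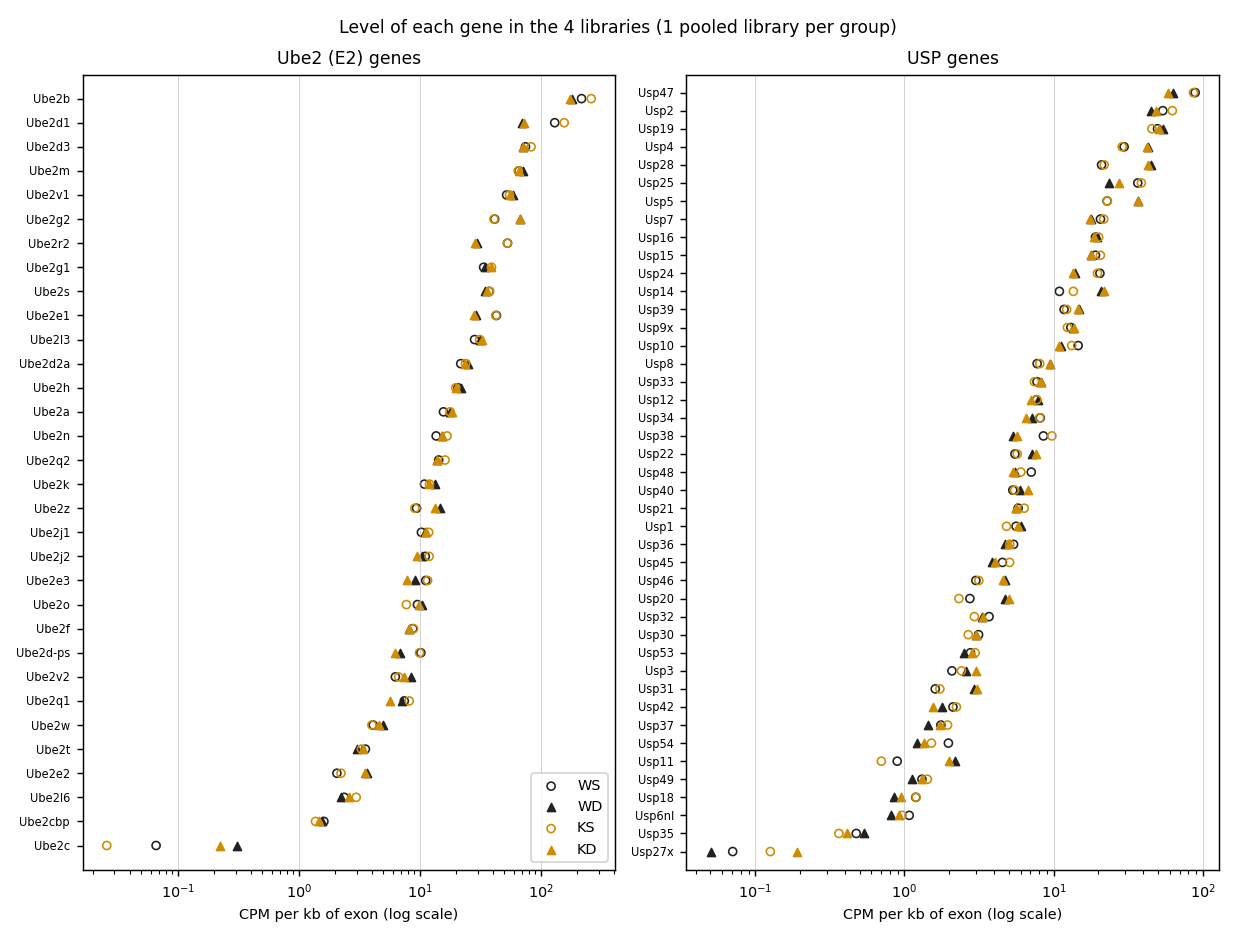
Level of 32 E2 genes (left) and 43 USP genes (right) in CPM per kilobase of exon (log axis), ordered by the mean over the 4 pooled libraries. Open circles are sham and filled triangles denervated libraries, in black for WT and orange for Fgf21KO. The triangles of Usp28, Usp11 and Ube2c lie to the right of the circles, and those of Ube2d1 and Ube2r2 to the left.

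Genotype called no member. The additive model called 0 E2 and 0 USP genes for genotype with or without the fold threshold, and an unadjusted p below 0.05 was reached by 3 E2 and 4 USP genes. DESeq2's Wald test also called 0. Over all genes, 0.176% were called, and 0.673% without the fold threshold. In sham muscle (KS vs WS), 2.04% of all genes were at least 2-fold apart and no member was. In denervated muscle (KD vs WD), 1.55% of all genes and 1 USP gene were at least 2-fold apart. This was Usp27x, the lowest USP gene, at 7 counts in both WT libraries and 16 (sham) and 25 (denervated) in Fgf21KO. Its log2 ratio was 1.63 (0.66 to 3.37) in KD vs WD and 0.72 (-0.52 to 2.36) in KS vs WS.

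Denervation ratios of the genotypes were set side by side as a description. By the 2-fold ratio, WD vs WS separated 14.8% of all genes, 1 E2 gene (Ube2c) and 2 USP genes (Usp11 and Usp28). KD vs KS separated 13.6% of all genes, 2 E2 genes (Ube2c and Ube2d1) and 2 USP genes (Usp11 and Usp20). The ratios had the same sign in 26 of 33 E2 genes and 38 of 43 USP genes, beside 10840 of all 13084 tested genes. Across genes, which are not independent replicates and share the same 4 libraries, Pearson's r was 0.956 and Spearman's rho 0.843 over the E2 genes, 0.901 and 0.851 over the USP genes, and 0.852 and 0.813 over all tested genes. No member had ratios at least 1 log2 unit apart, against 538 of all tested genes.

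Most E2 genes had a lower denervation ratio in Fgf21KO than in WT muscle. The difference (KD vs KS minus WD vs WS) had a median of -0.10 over the E2 genes and 0.01 over the USP genes, against -0.0048 over all tested genes. It was below the median of all genes in 26 of 33 E2 genes (78.8%) and in 19 of 43 USP genes (44.2%). Scaled by total counts, the medians were -0.025 for the E2 genes, 0.086 for the USP genes and 0.069 for all genes. Ube2b (-0.33) and Ube2d1 (-0.22) were among them. With 1 library per group this difference has no test.

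**Figure D4:**
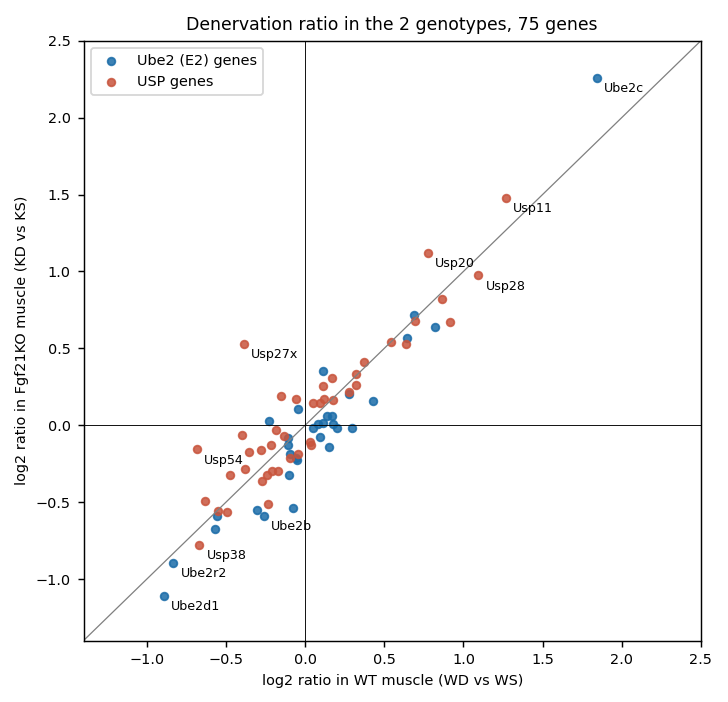
Log2 ratio of denervated over sham level in WT muscle (x axis) and Fgf21KO muscle (y axis) for 75 genes, with E2 genes in blue and USP genes in red and the line of equal ratios in grey. Each point compares 4 pooled libraries, and most points lie near the line, with Ube2c, Usp11, Usp28 and Usp20 at the upper right and Ube2d1 and Ube2r2 at the lower left.

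The other genes of the pathway were taken from lists of E1 enzymes, ubiquitin genes, E2 enzymes of other symbols, other deubiquitinases and USP cofactors. Of 68 tested genes, 3 were DEGs, all higher, and 42 passed without the fold threshold, 29 higher and 13 lower, where 13.1% of all tested genes were DEGs, 26.6% passed as higher and 27% as lower. Under total counts, 8 were DEGs and the split was 47 higher and 2 lower, where 46.7% and 12.8% of all genes passed. Rps27a, which encodes ubiquitin fused to a ribosomal protein, was at 3392 (sham) and 11460 (denervated) counts in WT and at 4728 and 11503 in Fgf21KO, and rose by 1.24 ± 0.07 (adjusted p = 7.41e-15). The polyubiquitin gene Ubb fell by 0.41, and did not pass with scaling by total counts. The deubiquitinases Otud1 (1.46 ± 0.10) and Cyld (1.22 ± 0.08), which cuts lysine-63 and linear chains, were the other DEGs.

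The E1 group had 7 genes that rose and 2 that fell of 10, beside the 26.6% and 27% of all tested genes. Uba1, the main E1 enzyme of ubiquitin, rose by 0.23. Uba6, the E1 enzyme that charges Ube2z, rose by 0.53, with log2 ratios of 0.23 in WT and 0.81 in Fgf21KO. Uba7, the E1 enzyme of ISG15, fell by 0.84 ± 0.17 (adjusted p = 0.000138). Tnfaip3 fell by 0.52 (adjusted p = 0.0233), with log2 ratios of -0.82 in WT and -0.23 in Fgf21KO, and did not pass with scaling by total counts. Yod1 had an additive change of -0.53 and did not pass. Of 10 tested USP cofactors 5 rose and 1 fell, again beside 26.6% and 27% of all tested genes, among them G3bp1, the partner of Usp10, which rose by 0.64 ± 0.07, while Usp10 itself fell by 0.33 ± 0.08 (adjusted p = 0.00110), and did not pass with scaling by total counts (adjusted p = 0.90). Psmd2, a proteasome subunit of the base to which Usp14 is docked, rose by 0.38.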

How the data were processed

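RNA of TA muscle, 4 muscles pooled per group, was extracted with an RNeasy kit and sequenced from stranded mRNA libraries. The authors deposited unnormalized counts of reads on each gene. A further deposited table of log2 values was tested on the file: it holds counts scaled by 1 factor per library, with 1 added before the log, and no length correction. The submitters' processing notes name FastQC and GRCm39, and the aligner, counter and strand setting are not given in the sources used here. Groups were taken from the labels. The 13084 of 13825 genes with a mean of 10 or more counts were tested with edgeR 4.0.16 (R 4.3.3; TMM; common biological coefficient of variation 0.0681), an additive quasi-likelihood model and the paper's thresholds, adjusted p below 0.05 and an absolute log2 change of at least 1. Log2 ratios used a prior count of 2. Exact binomial intervals (95%) and the floor of 3 counts cover counting error only. Levels per kilobase used GENCODE M21 exon lengths, and shared sequence was the share of 50-base windows of the longest transcript found in other genes. Reads of genes that share sequence could be split by the counting. Python 3.11.15 with scipy 1.17.1 and pandas 2.3.3 was used for the rest, and the scripts were tested on simulated data.

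Named genes were the DEGs, the 5 highest and 5 lowest of each family in WD vs WS, members at least 2-fold apart by genotype, the 3 highest per kilobase of each family, members whose ratios differed by at least 1 between genotypes, a list of known members, and 6 other pathway genes by WD vs WS. Other members and pathway genes named were chosen after their values were seen. The members and lists were chosen with earlier results of these data known. Alternatives were DESeq2 (1.42.0) size factors and Wald test, total counts, removal of the filter, a filter at a mean of 50, a smaller prior count and a prior count of 5, limma (3.58.1) on the deposited log2 values and no fold threshold. Counts without the fold threshold under other scalings or tests, and the genotype difference under other scalings, were added after seeing the data. Some members and pathway genes are counted in the totals but are not reported here by name or plotted.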

Additional observations from a re-analysis of the deposited data

Results flagged for a closer look

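Ube2n, the E2 enzyme of lysine-63 chains, had denervation ratios of opposite sign in the genotypes, with both counting intervals away from 0. Opposite signs alone were seen in 7 of 33 E2 genes, 5 of 43 USP genes and 2244 of all 13084 tested genes. Ube2k (-0.31) and Ube2q1 (-0.46) differed more between the genotypes than Ube2n did. The Ube2n counts were 1224 (sham) and 1913 (denervated) in WT, and 1927 and 1818 in Fgf21KO. The log2 ratio was 0.15 (95% counting interval 0.05 to 0.26) in WT and -0.14 (-0.24 to -0.05) in Fgf21KO, a difference of -0.30 ± 0.07 (counting SE). The WS library was the lowest, and KS exceeded it by 0.30 on the log2 scale, while KD exceeded WD by 0.0042. The difference was not tested, since each group is 1 library. The opposite signs are relative to the TMM scaling. Scaling by total counts moved the median of all genes up by 0.36 in KD vs KS, more than the fall of Ube2n there. The additive change of Ube2n was 0.32 under total counts and 0.0027 with TMM. Of the 50-base windows of its transcript, 10.7% were shared with other genes.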

How the results depend on the processing

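No paired analysis was possible because the labels give no replicate numbers and each group is 1 library, which also leaves no library to be left out. The genotype term of the additive model sets each denervated pool against the sham pool of its own genotype. With scaling by total counts only, 6 USP genes and 8 other pathway genes were DEGs for denervation, 25 E2 genes passed without the fold threshold, and the 2-fold ratio separated 2 E2 and 5 USP genes for WD vs WS and 6 USP genes for KD vs KS. Of all tested genes, 15.5% were DEGs under that scaling and 59.5% passed, and the ratio separated 16.2% (WD vs WS) and 17.5% (KD vs KS). The log2 ratios of the summed levels then became 0.21 and 0.13 for the E2 genes and 0.24 and 0.29 for the USP genes (WD vs WS, KD vs KS). That scaling moved the median of all genes by 0.29 and 0.36. The USP DEGs added there were Usp5, Usp14, Usp20 and Usp31, and the E2 DEGs were Ube2c, Ube2e2 and Ube2g2. The number of E2 DEGs was 1 with no filter, 0 with a mean count of at least 50, 1 by DESeq2's Wald test and 1 by limma on the deposited log2 values. In that order, 12.8%, 12.1%, 10.8% and 8.25% of all genes were DEGs. Ube2c is below the filter of 50, where Ube2d1 was lost as well. Ube2d1, at the fold threshold, was lost with no filter and with total counts, and Ube2c with DESeq2 and limma. Removing the fold threshold gave, by construction, 14 E2, 25 USP and 42 other pathway genes, beside 53.5% of all tested genes. DESeq2's Wald test then gave 8, 16 and 27, beside 35.9% of all tested genes, and the cause of the lower counts was not tested. In the ratios, a mean count of at least 50 left 0 E2 genes for WD vs WS, 1 for KD vs KS and 0 USP genes for KD vs WD, the deposited log2 values gave the same 3 counts, and a smaller prior count gave 1 E2 gene in KS vs WS. Over all genes, the shares in these 3 comparisons were 13.2%, 12.0% and 0.407% with that filter. They were 9.08%, 8.54% and 0.191% with the deposited values, and 2.73% in KS vs WS with the smaller prior count. Without Ube2b the E2 sums had ratios of -0.042 and -0.16, and without Usp47 the USP sums had 0.037 and 0.020. The other alternatives kept each count within 1.5 times. Of the 39 members that passed, 12 did not pass under total counts, of which 7 also changed sign. Most E2 genes and several USP genes that did not pass with TMM passed as higher under total counts. Depth limits Ube2c and Usp27x, at 2 to 26 counts.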
